A study of Arabidopsis thaliana with 2 samples.

Results

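Signals of 5 RALF-like peptide genes, RALFL22, RALFL24, RALFL32, RALFL33 and RALFL34, were compared between the activation-tagged Arabidopsis thaliana line BOUNTIFUL and wild-type Ws-0. They are the genes whose symbol starts with RALFL, whose probe set on the array is assigned to exactly 1 gene, and whose mean signal over both arrays reached 39.9 units, the median of that mean over the Arabidopsis probe sets. The gene table holds 32 symbols that start with RALFL. Of these, 11 had a probe set of their own, 5 reached the level, 6 lay below it, and 21 are not analysed here. Over the whole array 5990 of the 13355 genes with a probe set of their own reached the level. RALF1 and RALF23, whose symbols do not start with RALFL, are not analysed here either. The 5 genes were chosen by their mean signal, which contains the BOUNTIFUL signal, and the family was taken up with earlier results of these arrays known, so what follows is a description and no test.

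RALF peptides, named for rapid alkalinisation factor, are small secreted signals rich in cysteine. Many are cut from a longer precursor, some of them by the site-1 protease S1P, and reach the cell wall, where they bind receptor kinases of the CrRLK1L family such as FERONIA together with small membrane-anchored co-receptors, and also bind leucine-rich repeat extensins of the wall. Binding of RALF1 to FERONIA is known to raise the pH outside the cell and to slow cell elongation, and other members act in immune signalling, in salt responses and in pollen tubes.

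BOUNTIFUL carries an Activation Tag I/dSpm insert in a locus the labels call BOU, in the Ws-0 background, and Ws-0 is its wild type. Total RNA came from a mixture of the 4 youngest rosette leaves at developmental stage 6.50, and both genotypes grew on compost in a glasshouse kept at 23 °C under 16 h days. Each genotype was measured on 1 array, so no value has a replicate, no p-value was computed, and the precision of every difference is limited by the number of arrays. In RNA of whole leaves, fewer cells that express a gene and less of its RNA per cell cannot be told apart. Values are MAS5 signals, a brightness in arbitrary units, and a signal of 1 gene cannot be set against that of another because each probe set binds its transcript differently.

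The median signal was 39.0 units on the Ws-0 array and 38.9 on the BOUNTIFUL array. The 27 Bacillus subtilis controls, probe sets for genes that plants lack, reached 16.7 units in Ws-0 and 21.9 in BOUNTIFUL, and a plant signal in that range cannot be told from background. All 6 leaf markers with a probe set, of 22 listed, passed the level, at 158 to 4492 units, summing to 12047 units in Ws-0 and 15321 in BOUNTIFUL. Only RCA, the activase of the carbon-fixing enzyme Rubisco, was lower in BOUNTIFUL, with a log2 ratio of BOUNTIFUL over Ws-0 of -0.32. The other leaf markers were all higher, from 0.22 for LHCB4.1 to 1.64 for PORB, a chlorophyll synthesis enzyme. The 3 pollen markers with a probe set lay at 0.387 to 6.26 units, and the floral marker UFO, at most 2.36 units, was as dim. Of 8 root markers, 3 had a probe set and none passed, summing to 60.3 units in Ws-0 and 100.2 in BOUNTIFUL. That difference came from PYK10, a beta-glucosidase gene of roots and seedlings, which read 13.6 units in Ws-0 and 56.5 in BOUNTIFUL. The root hair expansin EXPA7 was lower in BOUNTIFUL, at 21.7 and 17.5 units, and EXPA18 nearly level, at 25.0 and 26.1. The part of these differences in the RALFL values was not tested.

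All 5 RALFL genes had a higher signal in BOUNTIFUL than in Ws-0, and for 2 of them, RALFL32 and RALFL34, the difference was at least 2-fold. Log2 ratios are BOUNTIFUL minus Ws-0 of log2(signal + 7.77), where 7.77 units is the 20th percentile of all signals, which understates the difference of dim genes. Of the 11373 Arabidopsis probe sets at or above the level, 44.9% had a log2 ratio above 0 and 4.63% one of at least 1. The median log2 ratio of the 5 genes was 0.55, and that of all passing probe sets was -0.06, with an SD over probe sets of 0.62. RALFL32 reached the level through its BOUNTIFUL signal alone, so its difference is partly set by how the genes were chosen. The other 4 genes were above the level on both arrays, and their median was 0.47.

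**Figure D1:**
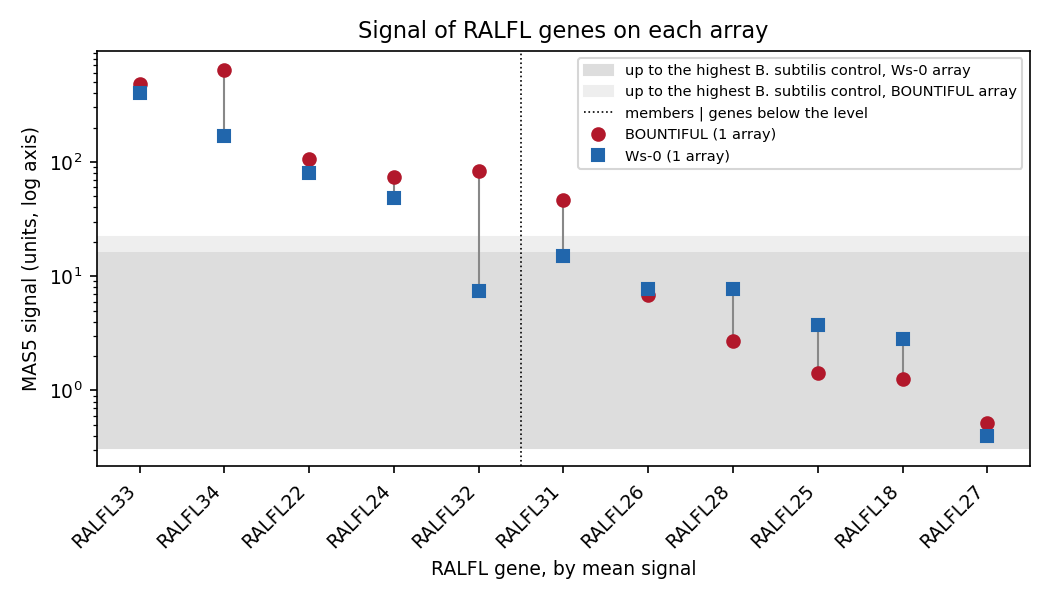
MAS5 signal (log axis, units) of the 11 RALFL genes with a probe set of their own, with 1 point per array for BOUNTIFUL and Ws-0. The 5 genes left of the dotted line reached the level and had the higher point in BOUNTIFUL, and grey shading marks signals up to the highest Bacillus subtilis control, 16.7 units in Ws-0 and 21.9 in BOUNTIFUL.

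RALFL34 (AT5G67070, probe set 247037_at) had the most separated pair of signals among the members that were above the level on both arrays. Its peptide is known as a ligand of the receptor kinase THESEUS1 and acts in the initiation of lateral roots. It read 167 units in Ws-0 and 642 in BOUNTIFUL, and both lay far above the controls. The log2 ratio was 1.89, a 3.72-fold difference. Of the 11373 passing probe sets, 120 had a log2 ratio at least that high, its own included, or 1.06%. The value depended little on the pseudocount, at 1.94 without a pseudocount and 1.80 with the larger one of 24.8 units, the 40th percentile.

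RALFL32 (AT4G14010, probe set 245386_at) read 7.37 units in Ws-0 and 83.4 in BOUNTIFUL. The BOUNTIFUL signal was above all controls, while that of Ws-0 was in their range and not above background. The BOUNTIFUL signal was 4.98 times the highest control signal of the Ws-0 array. The size of its log2 ratio, 2.59, therefore depends on the pseudocount, and was 3.50 without one and 1.75 with the larger one. With the larger one RALFL34, at 1.80, had the higher log2 ratio, so the order of these genes is not settled. In the gene table RALFL32 lies wholly inside the span of another gene, AT4G14000. That gene has its own probe set, which read 129 units in Ws-0 and 116 in BOUNTIFUL (log2 ratio -0.15).

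The remaining members differed by less than 2-fold. RALFL24 (AT3G23805, probe set 257204_at) read 48.2 units in Ws-0 and 74.3 in BOUNTIFUL, with a log2 ratio of 0.55. RALFL22 (AT3G05490, probe set 259106_at), whose peptide acts with FERONIA and leucine-rich repeat extensins in salt responses, read 80.5 and 107 units in the same order, with a log2 ratio of 0.38. RALFL33 (AT4G15800, probe set 245334_at), for a FERONIA ligand known from immune signalling and root growth, read 402 and 485 units, with a log2 ratio of 0.27. These are 1.47-fold, 1.301-fold and 1.203-fold differences, each toward BOUNTIFUL. Differences of this size are common on these arrays, since 12.5% of passing probe sets had a log2 ratio at least as high as RALFL24, 18.9% as RALFL22 and 24.7% as RALFL33. For scale, the log2 ratios of 33 pairs of passing probe sets that read the same gene differed by a median of 0.21. That spread is between probe sets on the same arrays and says nothing of the spread between plants.

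**Figure D2:**
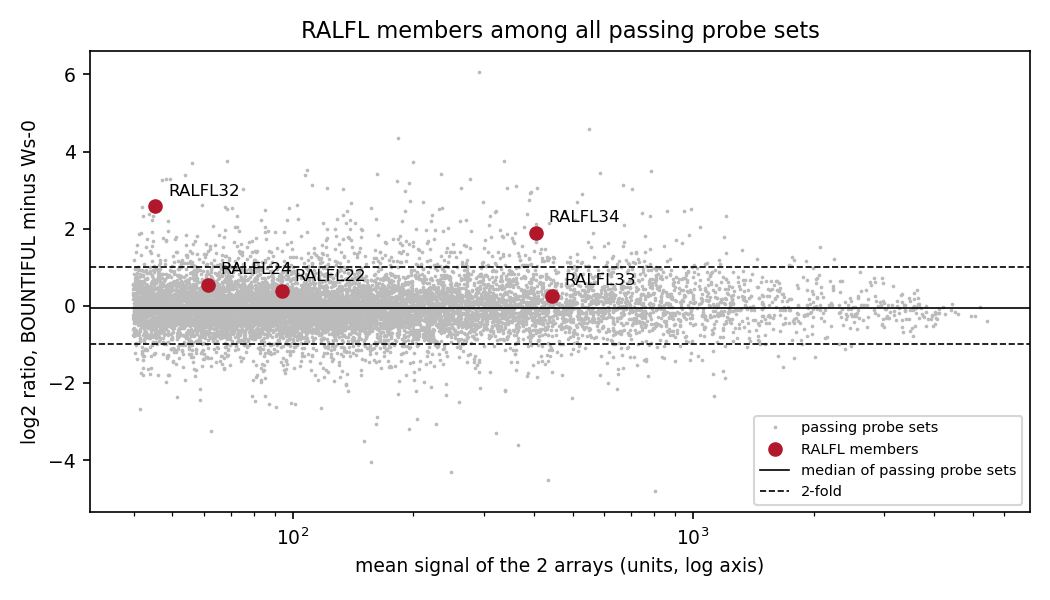
Log2 ratio, BOUNTIFUL minus Ws-0, against mean signal of both arrays (log axis, units) for all 11373 passing probe sets (grey) and the 5 RALFL members (red), with the median of all passing probe sets (solid line, -0.06) and 2-fold differences (dashed lines). RALFL32 (2.59) and RALFL34 (1.89) lie above the upper dashed line, and RALFL22, RALFL24 and RALFL33 lie between it and the median.

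All 5 genes kept their direction under every scaling and pseudocount tried, but the size of the difference changed. A pseudocount added to both signals cannot change the direction. Hybridisation spikes, transcripts added to the mix before hybridisation, read lower in BOUNTIFUL by a mean log2 ratio of -0.35 for 9 newer probe sets and -0.55 for 9 older ones. Setting the newer spikes equal on both arrays moved the median of all passing probe sets to 0.27, and 9.83% of them then had a log2 ratio of at least 1. The RALFL median was 0.87 on that scale, with the same count of 2 genes at least 2-fold higher. Setting the older spikes equal moved the median of all to 0.45, with 14.6% at least 2-fold higher, and the RALFL median to 1.05, with RALFL24 as the third gene past 2-fold at 1.05. Both scalings multiply every BOUNTIFUL signal by 1 factor, so the members and the median of all probe sets shift up together. Since that factor raises BOUNTIFUL, neither could have turned any of the 5 genes lower. Setting the medians of both arrays equal also raised BOUNTIFUL by 1 factor, since its median signal was the lower one. Only quantile normalisation and a loess fit of log2 ratio on mean signal could have reversed a gene. On the deposited scale the members stood above that median by 0.33 (RALFL33), 0.44 (RALFL22), 0.61 (RALFL24), 1.95 (RALFL34) and 2.65 (RALFL32).

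**Figure D3:**
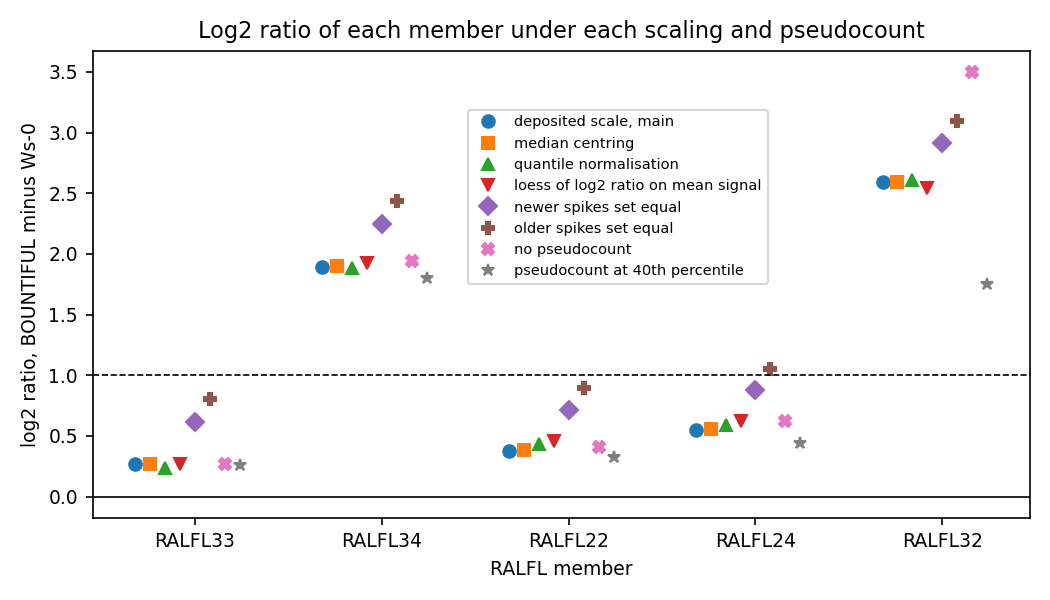
Log2 ratio, BOUNTIFUL minus Ws-0, of each RALFL member on the deposited scale, under 5 other scalings and with 2 other pseudocounts, with lines at 0 and at a 2-fold difference. All points lie above 0, those of RALFL32 spread from 1.75 to 3.50, and 1 point of RALFL24 (1.05, older spikes set equal) crosses 2-fold.

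Of the 6 RALFL genes below the level, the nearest was RALFL31 (AT4G13950, probe set 245310_at), with a mean of 31.02 units. The members nearest above the level were RALFL32, with a mean of 45.4 units, and RALFL24, with 61.3. RALFL31 read 15.2 units in Ws-0, within the range of the controls, and 46.9 in BOUNTIFUL, above it. Its log2 ratio was 1.25, and its BOUNTIFUL signal was 2.80 times the highest Ws-0 control. With no filter on signal, 4.17% of the 22746 Arabidopsis probe sets had a log2 ratio of at least 1. The next gene down, RALFL26, had a mean of 7.23 units. RALFL18, RALFL25, RALFL26, RALFL27 and RALFL28 read 0.396 to 7.71 units, all within the range of the controls on both arrays, so no difference can be read for these 5 genes.

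A list of 44 loci linked to RALF signalling held families of receptors, co-receptors and wall proteins and a set of processing and downstream genes. Not every locus on it is known to sense or process RALF peptides. Of the 44, 23 had a probe set of their own and 6 passed the level. On the deposited scale none of the 6 was at least 2-fold higher or lower, while of all passing probe sets 4.63% were higher and 3.98% lower by that much. With 6 genes, a count of 0 is near that background. Of the 17 listed CrRLK1L receptor kinases, 12 had a probe set and 4 passed. Of these 4, 1 had a log2 ratio above 0 and 3 below, with a median of -0.12. FER (AT3G51550), the gene of FERONIA, read 270 units in Ws-0 and 264 in BOUNTIFUL (log2 ratio -0.03). THE1 (AT5G54380), the gene of the RALFL34 receptor THESEUS1, read 74.5 and 90.9 units in that order (0.26). The other passing members of this list, which the gene table names by locus, were AT2G39360, with 79.2 units in Ws-0 and 67.2 in BOUNTIFUL (log2 ratio -0.21), and AT2G23200, with 150.1 and 90.1 (-0.69).

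Of the 11 listed leucine-rich repeat extensin loci, which encode wall proteins that bind RALF peptides, 8 had a probe set and only AT3G24480 passed, at 69.1 units in Ws-0 and 128 in BOUNTIFUL (log2 ratio 0.82). Of the 12 listed processing and downstream genes, 3 had a probe set and only S1P (AT5G19660), the protease that cuts several RALF precursors, passed, at 97.5 units in Ws-0 and 80.0 in BOUNTIFUL (-0.26). The 4 listed LLG co-receptor genes had no probe set named here. The 17 list members below the level had means of 0.461 to 34.9 units. AT2G15880, an extensin locus among them, read 26.2 units in Ws-0 and 3.69 in BOUNTIFUL (log2 ratio -1.56). The CrRLK1L loci AT5G39020 and AT5G39030 read 25.9 and 28.1 in Ws-0 and 16.8 and 17.5 in BOUNTIFUL. These loci, AT3G22800 and AT5G59700 were above the controls in Ws-0 alone, and none of the 17 was so in BOUNTIFUL alone. AT5G24010 was above them on both arrays, at 31.2 units in Ws-0 and 38.7 in BOUNTIFUL (0.26). With the newer or the older spikes set equal, the log2 ratios of FER, AT2G39360 and S1P turned positive. They were 0.31, 0.11 and 0.06 with the newer spikes and 0.50, 0.28 and 0.24 with the older. Those of the other 3 passing genes kept their sign. AT3G24480 then passed 2-fold, at 1.16 and 1.34.

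**Figure D4:**
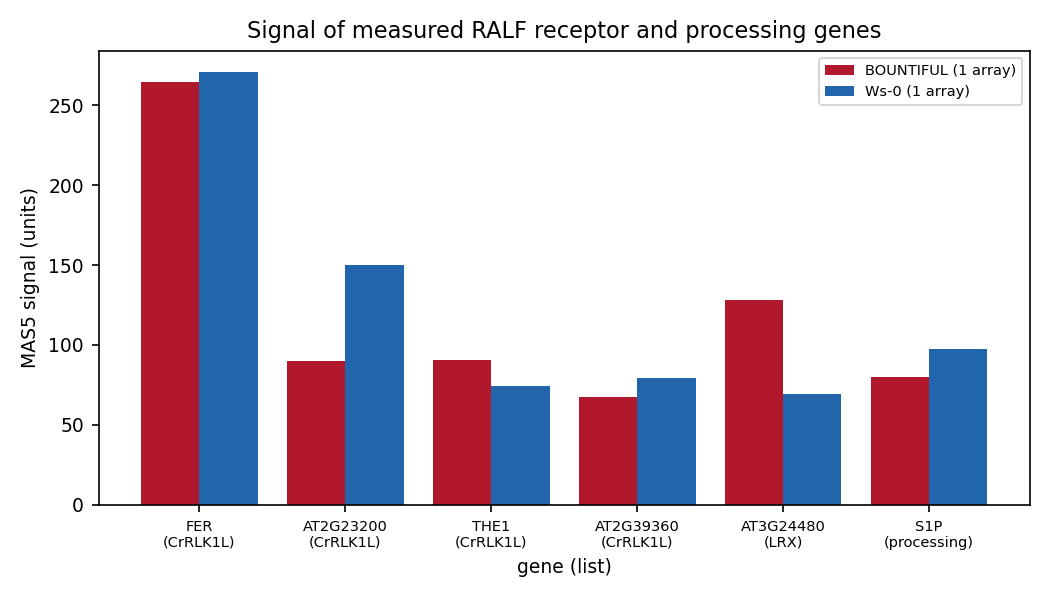
MAS5 signal (units, from 0) in BOUNTIFUL and Ws-0 (1 array each) for the 6 listed receptor, wall and processing genes that passed the level. The bars of FER are nearly level at 264 and 270 units, the BOUNTIFUL bar is the higher one for THE1 and AT3G24480, and the Ws-0 bar for AT2G23200, AT2G39360 and S1P.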

How the data were processed

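Biotin-labelled cRNA of 1 BOUNTIFUL and 1 Ws-0 sample had been hybridised to an Affymetrix Arabidopsis array with 22810 probe sets, 64 of them controls. The deposited intensity values are linear signals that, per the submitters' processing notes, came from MAS5 (version not given in the sources used here). Their 2% trimmed mean was 100.0 on both arrays, so no further scaling was applied for the main values. Gene names came from the platform's 2016 annotation and were updated through the TAIR10.1 gene table by gene ID or symbol, and that table was used only for names, order and overlap of genes. Detection calls were not used. Log2 ratios used a pseudocount of 7.77 units, the 20th percentile of all signals. A probe set passed from a mean of 39.9 units and was counted as different from 2-fold. With 1 array per genotype, no test was run. Beside markers and neighbouring genes, the genes named were the RALFL genes with a probe set of their own and the passing members of the pathway lists. Some list members below the level are named as well, which the plan did not include. A planned match of other genes to the member with the largest log2 ratio is not given, since that member, RALFL32 in the main setting, was not above background in Ws-0. Members and lists were chosen with earlier results of these data known. The calculations, in Python 3.11.15 with pandas 2.3.3 and statsmodels 0.14.6 (loess, span 0.3), were checked on simulated signals. Alternatives were 5 other scalings, 2 other pseudocounts, 2 other filters, the choice of probe sets (without suffixes that mark cross-hybridisation, or the brightest of a gene) and leaving out RALFL32.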

Additional observations from a re-analysis of the deposited data

Results flagged for a closer look

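RALFL31, which lies below the level used for the members and so enters no count of them, had a BOUNTIFUL signal of 46.9 units, above the highest Bacillus subtilis control of that array, 21.9 units. Its Ws-0 signal of 15.2 units was below the highest control there, 16.7 units.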

How the results depend on the processing

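No paired analysis was possible because there was a single array of each genotype, which also left no array to omit. Of the 12 alternatives, 11 were planned and 1, leaving out RALFL32, was chosen after seeing the data. A log2 ratio was taken as moved when it differed from the main value by over 0.21, the median difference between probe sets of 1 gene. No RALFL member had a log2 ratio below 0 under any alternative that retained it, but most alternatives could not have given one. The filters, the choice of probe sets and leaving out RALFL32 did not change the values of the members retained. Pseudocounts cannot change a sign, and setting the spikes equal only raises BOUNTIFUL. Setting the medians of both arrays equal also only raises BOUNTIFUL. Only quantile normalisation and the loess fit could have given a log2 ratio below 0. With the newer spikes set equal, RALFL22 was at 0.71, RALFL24 0.87, RALFL32 2.91, RALFL33 0.61 and RALFL34 2.24, and the RALFL median at 0.87. With the older spikes these were 0.89, 1.05, 3.10, 0.80, 2.43 and 1.05. The same scalings put the CrRLK1L median at 0.21 and 0.39, the leucine-rich repeat extensin value at 1.16 and 1.34 and the processing value at 0.062 and 0.24, against -0.12, 0.82 and -0.26 in the main setting. RALFL32 was at 3.50 with no pseudocount and 1.75 with the larger one. With no filter, the RALFL median was 0.27 over 11 genes, 3 of them at least 2-fold higher (4.17% of all 22746 probe sets). The extensin median was then -0.16 over 8, since dim genes enter. With the filter at the 75th percentile, 116 units, 2 RALFL genes remained, with a median of 1.08 and 1 at least 2-fold higher (5.66% of the 5687 probe sets left), and 2 CrRLK1L genes with a median of -0.36. Without RALFL32, 1 of 4 genes was at least 2-fold higher (4.63% of all passing probe sets). Signals in the range of the controls limit what can be read of RALFL32 and RALFL31 in Ws-0.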

Other observations

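RALFL31 and RALFL32, whose BOUNTIFUL signals were above the controls and whose Ws-0 signals were not, lie on the same chromosome. In gene order 10 other protein-coding genes come between them, counting AT4G14000, whose span holds RALFL32. This was looked at after the values were seen. Of those 10 genes, 3 had a probe set of their own. AT4G14000 read 129 units in Ws-0 and 116 in BOUNTIFUL (log2 ratio -0.15). AT4G13990 read 20.8 and 39.0 units (0.71), and AT4G13960 read 10.2 and 4.33, both in the range of the controls. AT4G14020, the next gene after RALFL32, went the other way, at 699 units in Ws-0 and 337 in BOUNTIFUL (-1.04). Of the 2 genes beside RALFL22, AT3G05500 passed the level and read 131 and 106 units (-0.29). Neither gene beside RALFL34 or RALFL24 had a probe set named here.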
